A study of Mus musculus with 9 samples.

Results

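The TNF ligand and receptor superfamily was examined in mouse iris after corneal alkali injury (CAI). Members were chosen by gene symbol alone: every gene whose symbol begins with *Tnfsf* or *Tnfrsf* followed by a digit, together with *Tnf*, *Lta*, *Ltb*, *Ltbr*, *Fas*, *Fasl*, *Cd27*, *Cd70*, *Cd40*, *Cd40lg*, *Eda*, *Eda2r* and *Ngfr*. The rule found 44 of the 18349 genes in the deposited files, of which 18 encode ligands, 6 encode receptors with a death domain, 3 encode decoy receptors and 17 encode other receptors. Of the 44 members, 36 had enough reads to be tested, among 15010 genes tested in all.

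Ligands of this superfamily are made as membrane proteins that assemble into trimers, and many can be cut from the cell surface by proteases such as ADAM17. They bind receptors that recruit TRAF adaptors, leading to NF-κB and kinase signaling, or, through a death domain, adaptors that can start apoptosis or necroptosis. Decoy receptors bind the ligand and pass no signal. TNF is best known as an inflammatory cytokine made by macrophages and T cells, and the family also includes costimulatory pairs of lymphocytes and the RANKL, RANK and osteoprotegerin system that controls osteoclasts and lymphoid organ formation.

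The RefSeq promoter table (GRCm38.p6, the assembly known as mm10) held 34 members, with 250 bases before and 50 bases after the start of each gene. The members lie in part in clusters, and 22 of the 44 lie in 9 groups with gaps of at most 100000 bases, such as *Ltb*, *Tnf* and *Lta* at chr17:35194507-35205578, *Tnfsf15* and *Tnfsf8* at chr4:63724600-63861508, and *Tnfrsf26*, *Tnfrsf22* and *Tnfrsf23* at chr7:143607685-143686436. A match to the κB consensus on either strand was found in 4 of 34 member promoters (11.8%), against 9.55% of all 27025 promoters in the table. The letters TATAAA on either strand were found in 7 of 34 (20.6%), against 15.7% of all promoters, and no member promoter held both motifs. The windows below are shown because they belong to ligands and a receptor gene with large changes after injury, described later. Each gives the strand of the gene, with the motif in capitals and 25 bases on each side where the window does not reach the gene's start. The capitals in *Tnfsf11* and *Ltb* are the motif read on the opposite strand.
Tnf TATAAA window, chr17:35202008-35202061, minus strand: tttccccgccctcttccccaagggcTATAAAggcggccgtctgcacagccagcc
Tnfsf11 TATAAA window, chr14:78308045-78308100, minus strand: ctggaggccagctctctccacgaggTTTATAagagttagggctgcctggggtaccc
Ltb κB window, chr17:35194395-35194454, plus strand: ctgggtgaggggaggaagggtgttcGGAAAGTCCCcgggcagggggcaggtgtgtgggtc
Tnfrsf8 κB window, chr4:145315298-145315357, minus strand: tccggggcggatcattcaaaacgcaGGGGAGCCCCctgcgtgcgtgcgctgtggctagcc
In *Tnf* and *Tnfsf11* the motif lies 29 to 24 and 32 to 27 bases upstream of the start, and in *Ltb* and *Tnfrsf8* 87 to 78 and 168 to 159 bases upstream. The other κB matches were in *Tnfrsf9* and *Tnfrsf25*, whose starts in the table lie inside the outer bounds of the gene. These are matches of letters and not measured binding.

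The 9 RNA-Seq libraries of irises fall into 3 groups of 3, with 3 irises of the same genotype pooled in each library. All mice were C57BL/6J mice that carried floxed *VEGFR3* alleles, and tamoxifen (80 mg/kg, days 13 to 17 after injury) is given in the labels for all groups alike. Sham *VEGFR3fl/fl* mice received PBS on the cornea at 6 weeks of age, and injured *VEGFR3fl/fl* mice received sodium hydroxide (1 M, 0.5 μL) for 60 seconds. Injured *VEGFR3iLECko* mice had the same injury and also carried *Prox1-CreERT2*, a tamoxifen-inducible Cre that is expressed in lymphatic endothelial cells and in any other cell that uses *Prox1*. Irises were collected at week 10, or 28 days after injury.

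Libraries held 16617187 to 18306359 counts. *Flt4*, which encodes VEGFR3, had 237 to 282 counts in Sham, 277 to 400 in injured *VEGFR3fl/fl* and 370 to 478 in injured *VEGFR3iLECko* libraries, so it was not lower under the knockout label, and that group is therefore called the libraries labelled *VEGFR3iLECko*. The summed level of 4 Y-linked genes was 51.1 to 167.1 CPM in Sham libraries, 150.7, 135.9 and 0.804 CPM in injured *VEGFR3fl/fl* replicates 1 to 3, and 0.736 to 1.11 CPM in the libraries labelled *VEGFR3iLECko*. Injured *VEGFR3fl/fl* replicate 3 and all 3 libraries labelled *VEGFR3iLECko* thus nearly lack Y-linked reads, and the label and the level of Y-linked reads cannot be told apart fully. Iris pigment cell markers (8 genes) summed to 27790 to 29760 CPM in Sham. CPM are counts scaled to a common library size with TMM factors. A gene was called up- or downregulated when its adjusted p was under 0.05 and its change over 1.5-fold, from edgeR (quasi-likelihood F test), with p-values corrected by the Benjamini-Hochberg method across every gene in the fit. With 3 libraries against 3, an exact permutation test of a single gene cannot go below p = 0.1. In whole tissue, more RNA per cell and more cells of a type cannot be told apart.

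Most members of the superfamily that could be tested were higher after CAI. Between injured and Sham *VEGFR3fl/fl* irises, 27 of 36 members tested (75%) were upregulated, against 22.1% of all genes tested, and 1 (2.78%) was downregulated, against 17.5%. The remaining 8 were called in neither direction. The median log2 fold change was 2.14 over the 36 members and 0.0102 over all genes tested. In 30 members (83.3%) every injured library was above every Sham library, against 33.9% of all genes, and in 1 member every injured library was below, against 32.4%. By role, 9 of 12 ligands tested, 3 of 6 death domain receptors, 3 of 3 decoy receptors and 12 of 15 other receptors were upregulated.

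A gene with few reads in Sham enters the test only if an injured group is high, so these counts were also taken over the members that reached the filter's minimum in every Sham library. There were 24 of them, of which 16 (66.7%) were upregulated, against 19% of all genes chosen in the same way, with a median log2 fold change of 1.13 against -0.0295. The other 12 members tested were *Cd27*, *Eda2r*, *Ltb*, *Tnf*, *Tnfrsf18*, *Tnfrsf8*, *Tnfrsf9*, *Tnfsf11*, *Tnfsf13b*, *Tnfsf14*, *Tnfsf15* and *Tnfsf8*, and each except *Cd27* was upregulated. Most of the 9 upregulated ligands are among these 12, so the ligand count by role rests largely on genes that were low in Sham. Of the ligands over the minimum, *Tnfsf9* and *Tnfsf10* were upregulated and *Eda*, *Tnfsf12* and *Tnfsf13* were not.

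**Figure D1:**
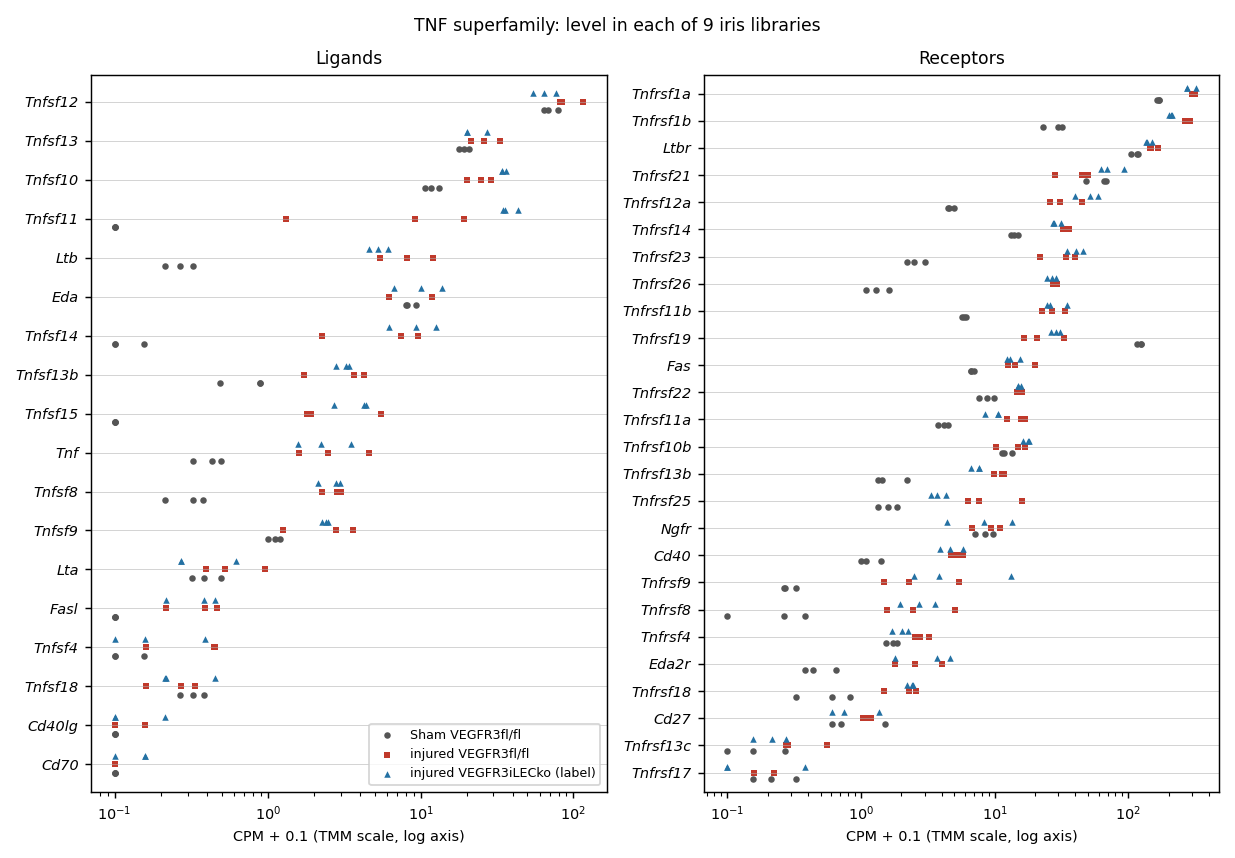
Level of all 44 members in each of the 9 libraries, as CPM on the TMM scale plus 0.1 on a log axis, with ligands on the left and receptors on the right and 1 symbol per library. Injured libraries lie to the right of all Sham libraries for most genes, whereas *Tnfrsf19* lies to the left and *Tnfsf11* is at 0 in Sham.

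*Tnf* itself (NCBI Gene ID 21926), the founding cytokine of the family, was a low-count gene. It had 6, 7 and 4 counts in Sham, 39, 77 and 26 counts in injured *VEGFR3fl/fl* and 58, 26 and 37 counts in the libraries labelled *VEGFR3iLECko*. Both injured groups lay above Sham and overlapped each other. Its mean level was 0.318 ± 0.086 CPM (SD, n = 3) in Sham and 2.79 ± 1.55 CPM (SD, n = 3) in injured *VEGFR3fl/fl* irises, an 8.61-fold rise (log2 fold change 3.10, SE 0.53, adjusted p = 0.000809 by edgeR). *Ltb* (16994), which encodes lymphotoxin β, the membrane partner of lymphotoxin α, had 3, 2 and 4 counts in Sham and 88, 137 and 209 in injured *VEGFR3fl/fl* libraries. This was a 48.3-fold rise (log2 fold change 5.59, SE 0.41, adjusted p = 4.54e-06 by edgeR). The third gene of the cluster, *Lta*, stayed at 4 to 7 counts in Sham and 5 to 15 in injured *VEGFR3fl/fl* libraries and was too low to test.

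The receptors of these ligands were abundant before injury. *Tnfrsf1a* (21937), the death domain receptor TNFR1, had 2973, 2991 and 3012 counts in Sham and 5225, 5245 and 5179 in injured *VEGFR3fl/fl* libraries, a 1.83-fold rise (adjusted p = 1.90e-05 by edgeR). *Tnfrsf1b* (21938), the TNFR2 gene, which is expressed mostly by leukocytes and endothelium, rose from 532, 408 and 560 counts to 4616, 4501 and 5007. That change was 9.89-fold (log2 fold change 3.31, SE 0.12, adjusted p = 7.87e-08 by edgeR), and replicates of a group lay close together. Taken per transcript length, *Tnfrsf1a* was at an approximate 223 TPM and *Tnfrsf1b* at 21.1 TPM in Sham, and at 332 and 169 TPM in injured *VEGFR3fl/fl* libraries. *Ltbr* (17000), the lymphotoxin β receptor gene, had 1873 to 2085 counts in Sham and 2495 to 2744 in injured libraries, a 1.36-fold difference under the fold threshold (adjusted p = 0.00142 by edgeR).

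Several ligands were absent or nearly absent from Sham irises. *Tnfsf11* (21943) encodes RANKL, the ligand that drives osteoclast formation and lymph node development. It had 0 counts in every Sham library, 20, 156 and 332 counts in injured *VEGFR3fl/fl* replicates 1 to 3, and 609, 611 and 748 counts in the libraries labelled *VEGFR3iLECko*. The 3 groups were separate, and the injured *VEGFR3fl/fl* replicates differed widely from each other. Injured replicate 1 also stood apart over all genes tested. Chi-square per degree of freedom between 2 libraries was 77.6 and 68 for replicate 1 against replicates 2 and 3. It was 27.1 for replicate 2 against 3, and 5.12 to 11.2 between Sham libraries. Against 3 counts per Sham library, *Tnfsf11* was at least 58.3-fold higher after injury (adjusted p = 0.00248 by edgeR), and this bound was 30.8-fold without injured replicate 3 and 83.8-fold without replicate 1. Such bounds cover counting error only.

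*Tnfsf14* (50930) encodes LIGHT, a ligand of the lymphotoxin β receptor and of HVEM. It had 0, 0 and 1 counts in Sham and 36, 125 and 167 in injured *VEGFR3fl/fl* libraries, which is at least 37.8-fold higher (adjusted p = 8.33e-05 by edgeR), with bounds of 28.2 to 50.3 when an injured library was left out. *Tnfsf15* (326623) encodes TL1A, the ligand of the receptor DR3. It had 0 counts in all Sham libraries and 30, 29 and 94 in injured *VEGFR3fl/fl* libraries, at least 17.7-fold higher (adjusted p = 0.000331 by edgeR), or at least 10.5-fold without injured replicate 3. *Tnfsf8* (21949), the neighbor of *Tnfsf15* and the ligand of CD30, rose 12.4-fold from 5, 4 and 2 counts to 36, 47 and 51 (adjusted p = 2.50e-05 by edgeR).

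The other ligands called upregulated were *Tnfsf13b*, *Tnfsf9* and *Tnfsf10*. *Tnfsf13b*, the B cell survival factor BAFF, rose 4.75-fold (adjusted p = 0.00119 by edgeR). *Tnfsf9* (21950), the 4-1BB ligand, had 20, 16 and 18 counts in Sham and 19, 60 and 47 in injured *VEGFR3fl/fl* libraries, a 2.43-fold rise (adjusted p = 0.0161 by edgeR), and its adjusted p was 0.0519 without Sham replicate 2 and 0.0623 without injured replicate 2. *Tnfsf10* (22035), which encodes the apoptosis ligand TRAIL, rose 2.08-fold from 236, 187 and 205 to 328, 420 and 499 counts (adjusted p = 0.000147 by edgeR). *Tnfsf12* and *Tnfsf13*, which encode TWEAK and APRIL, and *Eda* were not called. *Tnfsf13* was 1.40-fold higher with an adjusted p of 0.0365 (edgeR), under the fold threshold. The *Tnfsf12* and *Tnfsf13* values are uncertain, since 49.0% and 51.9% of the 50-base windows of their longest transcripts also occur in the readthrough gene *Tnfsfm13*.

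**Figure D2:**
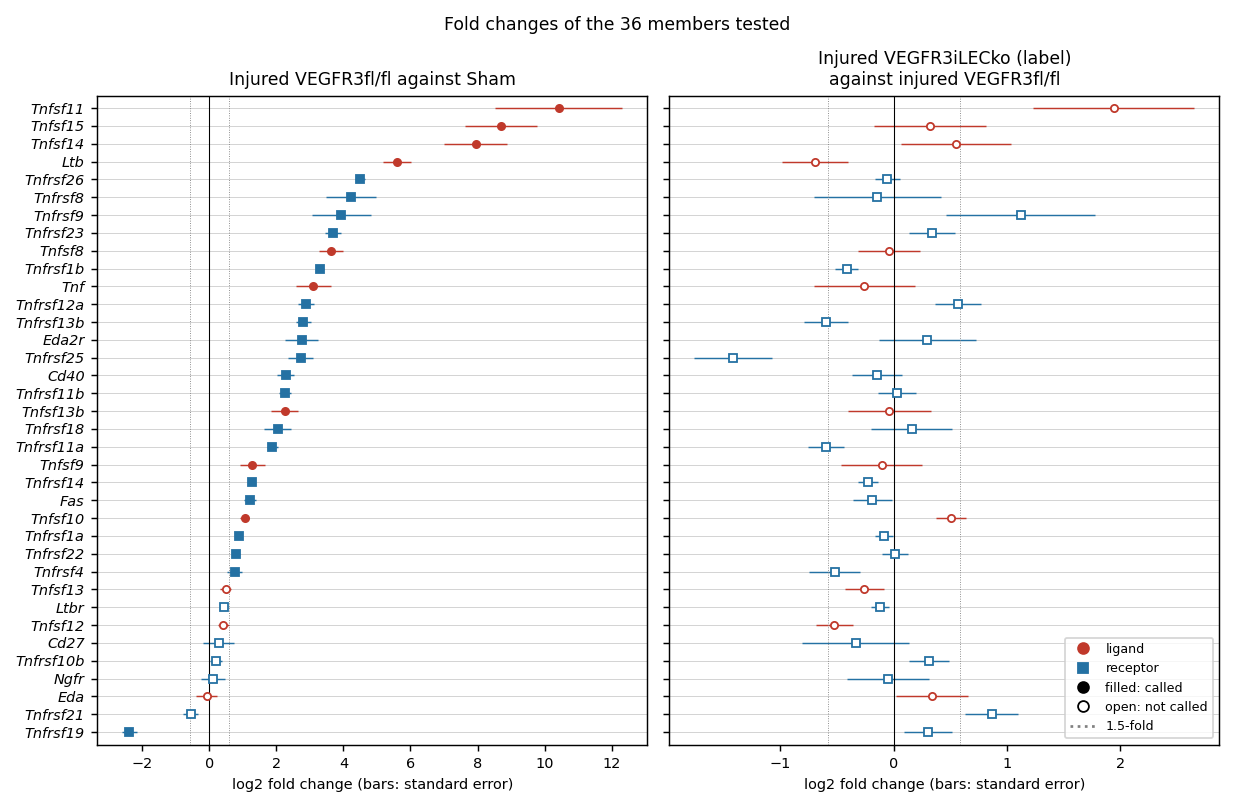
Log2 fold change of the 36 members tested, with bars of 1 standard error, for injury on the left and for the label comparison on the right, with circles for ligands, squares for receptors and filled symbols for called genes. After injury 27 genes are filled to the right of 0 and *Tnfrsf19* alone to the left, while no symbol is filled on the right, and the injury values of *Tnfsf11*, *Tnfsf14* and *Tnfsf15* rest on 0 or 1 counts in Sham.

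Several receptors of these ligands also rose after injury. *Tnfrsf25* (85030), the DR3 gene and receptor of TL1A, had 27, 22 and 31 counts in Sham and 263, 128 and 108 in injured *VEGFR3fl/fl* libraries, a 6.58-fold rise (adjusted p = 0.000203 by edgeR). *Tnfrsf14* (230979), the HVEM gene and a receptor of LIGHT, rose 2.40-fold from 249, 265 and 234 to 536, 549 and 628 counts (adjusted p = 3.88e-06 by edgeR). *Tnfrsf8* (21941), the CD30 gene, had 3, 0 and 5 counts in Sham and 24, 85 and 41 in injured libraries. This was 18.8-fold (log2 fold change 4.23, SE 0.74, adjusted p = 0.000990 by edgeR), and the log2 fold change was 3.61 without injured replicate 2 and 5.01 without Sham replicate 3. *Tnfrsf9* (21942), which encodes the T cell costimulator 4-1BB, had 3, 4 and 3 counts in Sham and 23, 91 and 38 in injured libraries. It rose 15.3-fold (log2 fold change 3.94, SE 0.88, adjusted p = 0.00382 by edgeR), with a log2 fold change of 3.22 without injured replicate 2. For both genes injured replicate 2 was the highest library of its group.

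*Tnfrsf12a* (27279), the gene of the TWEAK receptor Fn14, which many injured tissues express, rose 7.41-fold from 81, 77 and 87 to 428, 768 and 539 counts (adjusted p = 8.37e-06 by edgeR). Further called receptors were *Tnfrsf13b* (TACI, log2 fold change 2.81), *Eda2r* (2.75), *Cd40* (2.27), *Tnfrsf18* (GITR, 2.04), *Tnfrsf11a* (RANK, 1.88), *Fas* (1.21), *Tnfrsf22* (0.79) and *Tnfrsf4* (OX40, 0.76). The call of *Tnfrsf4* rested on 26, 29 and 31 counts against 44, 53 and 42. The edgeR adjusted p was 0.0168, or 0.0633 without Sham replicate 1 and 0.0584 without injured replicate 2.

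In the cluster on chromosome 7, neighboring genes changed by different amounts. *Tnfrsf26* (244237) had 18, 27 and 21 counts in Sham and 447, 468 and 507 in injured *VEGFR3fl/fl* libraries, a 22.5-fold rise (log2 fold change 4.49, SE 0.14, adjusted p = 5.15e-08 by edgeR). *Tnfrsf23* (79201), a decoy receptor for TRAIL, rose 12.9-fold from 43, 37 and 52 to 361, 578 and 695 counts (adjusted p = 2.65e-06 by edgeR). *Tnfrsf22* (79202), its neighbor and also a TRAIL decoy, rose 1.73-fold from 137, 173 and 153 to 239, 272 and 253 counts (adjusted p = 0.000321 by edgeR). *Tnfrsf22* and *Tnfrsf23* share 27.7% and 23.3% of their 50-base windows, mostly with each other, so the split of reads between them is uncertain. The signaling TRAIL receptor, *Tnfrsf10b*, had 241, 206 and 201 counts in Sham and 167, 288 and 257 after injury, and the groups overlapped (log2 fold change 0.20, SE 0.17, adjusted p = 0.341 by edgeR).

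The RANKL system differed in how its genes varied between libraries. *Tnfrsf11a* (21934), the RANK gene, had 66, 78 and 72 counts in Sham and 274, 265 and 215 in injured *VEGFR3fl/fl* libraries, a 3.67-fold rise (adjusted p = 1.45e-05 by edgeR). *Tnfrsf11b* (18383), which encodes osteoprotegerin, the decoy that binds RANKL and TRAIL, rose 4.76-fold from 101, 106 and 103 to 368, 574 and 469 counts (adjusted p = 8.83e-06 by edgeR). The libraries labelled *VEGFR3iLECko* had 441, 430 and 599 counts of this decoy and overlapped the injured *VEGFR3fl/fl* libraries (log2 fold change 0.03, SE 0.17). The ratio of *Tnfsf11* to *Tnfrsf11b*, each as approximate TPM, was 0 in Sham, 0.0685, 0.343 and 0.892 in injured *VEGFR3fl/fl* replicates 1 to 3, and 1.74, 1.79 and 1.57 in the libraries labelled *VEGFR3iLECko*. All 3 of the latter lay above the injured *VEGFR3fl/fl* libraries, and the ratio passed 1 in none of the *VEGFR3fl/fl* libraries. The highest *VEGFR3fl/fl* ratio, 0.892, was in injured replicate 3, which nearly lacks Y-linked reads, as do all libraries labelled *VEGFR3iLECko*. The lowest injured ratio, 0.0685, was in injured *VEGFR3fl/fl* replicate 1, which stood apart over all genes tested. *Tnfsf11* was not called between the injured groups, as described below.

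**Figure D3:**
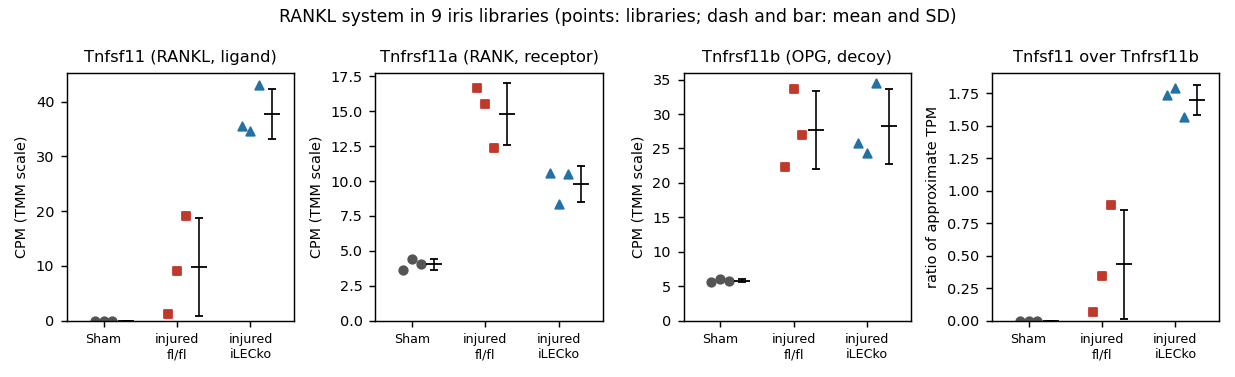
CPM on the TMM scale of *Tnfsf11*, *Tnfrsf11a* and *Tnfrsf11b* and the ratio of *Tnfsf11* to *Tnfrsf11b* in approximate TPM, with 1 point per library and a dash and bar for mean and SD (n = 3). The ratio lies at 0 in Sham, at 0.0685 to 0.892 in injured *VEGFR3fl/fl* and at 1.57 to 1.79 in the libraries labelled *VEGFR3iLECko*.

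*Tnfrsf19* (29820), the TROY gene, known from epithelial and neural progenitor cells, was the member that fell. It had 2090, 2200 and 2219 counts in Sham, 271, 350 and 572 in injured *VEGFR3fl/fl* and 452, 545 and 500 in the libraries labelled *VEGFR3iLECko*. Its level was 5.22-fold lower after injury (log2 fold change -2.38, SE 0.21, adjusted p = 1.54e-05 by edgeR). The summed CPM of pigment cell, smooth muscle, Schwann cell and surface epithelium markers moved the same way. Pigment cell markers were at 3413 to 5858 CPM in injured *VEGFR3fl/fl* libraries, with 8 of 8 downregulated, and smooth muscle markers at 7981 to 10300 CPM in Sham and 1664 to 3486 CPM after injury, with 5 of 7 downregulated. Schwann cell markers were at 748.9 to 911.9 CPM in Sham and 434.5 to 454.6 CPM after injury, with 4 of 6 downregulated, and corneal and surface epithelium markers at 31.9 to 77.7 and 7.65 to 12.9 CPM, with 4 of 6 tested (7 listed) downregulated. Their part in the change of *Tnfrsf19* was not tested.

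*Tnfrsf21* (94185), the death receptor DR6 gene, had 1226, 852 and 1168 counts in Sham and 463, 772 and 871 after injury, and the groups overlapped. It was not called (log2 fold change -0.56, SE 0.23, adjusted p = 0.0623 by edgeR), but it was called downregulated with library size only as the scaling (-0.72), with a covariate for Y-linked genes (-0.66), without Sham replicate 2 (-0.70) and without injured replicate 3 (-0.72). *Ngfr*, *Cd27* and *Eda* were not called, with overlapping groups and log2 fold changes of 0.10 (SE 0.36), 0.28 (SE 0.47) and -0.08 (SE 0.32). The sign for *Ngfr* turned with library size only and, for *Ngfr* and *Eda*, when single libraries were left out.

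Of the 44 members, 8 were too low to test: *Cd40lg*, *Cd70*, *Fasl*, *Lta*, *Tnfsf4*, *Tnfsf18*, *Tnfrsf13c* and *Tnfrsf17*. *Cd40lg* and *Cd70*, ligands of activated lymphocytes, had at most 2 counts in any library. *Fasl* (14103), the Fas ligand of cytotoxic cells, had 0 counts in all Sham libraries, 6, 2 and 5 in injured *VEGFR3fl/fl* and 6, 5 and 2 in the libraries labelled *VEGFR3iLECko*. Set against 3 counts per Sham library, its mean in injured *VEGFR3fl/fl* libraries was 1.52-fold, or 1.20-fold without replicate 1. Replicate 2 itself had fewer than 3 counts, so this is not a firm bound. The depth of these libraries does not show whether such genes differ between the injured groups.

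Markers of most leukocyte types listed rose along with these genes. Macrophage markers (10 of 11 upregulated) summed to 401.1 to 410.0 CPM in Sham and 3413 to 3746 CPM in injured *VEGFR3fl/fl* libraries, T cell markers (10 of 10) to 8.02 to 8.81 and 54.1 to 77.2 CPM, and B cell markers (4 of 4 tested, 7 listed) to 2.38 to 2.87 and 58.5 to 87.5 CPM. Dendritic cell markers (7 of 8) were at 11.5 to 13.1 CPM and 183.5 to 289.4 CPM, and neutrophil markers (4 of 5 tested, 7 listed) at 4.12 to 5.63 CPM and 162.4 to 537.8 CPM, with *Ly6g* at 0 in all Sham libraries. Mast cell markers were at 85.09 to 92.35 CPM and 114.2 to 179.1 CPM, and 0 of 5 tested (6 listed) were called. Fibroblast markers (4 of 6) were at 3799 to 4366 CPM and 15500 to 22500 CPM. Blood endothelium markers (5 of 8, with 1 downregulated) were at 539 to 568.9 CPM and 1271 to 1446 CPM. The part of any of these cell types in the rise of the superfamily was not tested.

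Genes around the superfamily moved unevenly after injury, and their counts are read against the 22.1% of all genes that were upregulated and the 17.5% that were downregulated. Of 9 TRAF adaptors and partners, 2 were upregulated and 1 downregulated, with a median log2 fold change of 0.286, and the upregulated share was close to that of all genes. *Traf1*, an adaptor of TNFR2 and related receptors, rose by 3.15 and *Traf2* by 1.09, while *Traf3ip2* fell by 0.66, on the log2 scale. Of 13 genes of death domain and cell death signaling, 9 were upregulated and 0 downregulated (median 0.856), led by the necroptosis genes *Ripk3* (log2 fold change 3.81), *Zbp1* (3.10) and *Mlkl* (2.58) and by *Casp8* (1.48), the initiator caspase of death receptors. Of 18 ubiquitin and kinase genes on the way to NF-κB, 3 were upregulated and 1 downregulated (median 0.0315), namely *Birc3* (1.54), *Map3k14* (1.02), *Tnfaip3* (0.75) and *Map3k5* (-0.88), and both shares were below those of all genes. *Map3k14* encodes NIK, the kinase of the alternative NF-κB pathway.

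Of 6 genes of ligand shedding, 3 were upregulated and 0 downregulated (median 0.558): *Adam17*, the TNF converting enzyme gene (1.09), its regulator *Rhbdf1* (0.76) and *Furin* (0.63). Of 6 superfamily genes outside the symbol rule, *Relt* (4.09) and *Edar* (1.88) were upregulated and *Edaradd* (-1.31) was downregulated (median 0.339). Of 18 TNF-inducible genes, 14 of the 17 tested were upregulated and 0 downregulated (median 3.24), with the largest changes in *Mmp9* (8.24), *Mmp3* (7.40), *Il6* (6.59) and *Tnfaip2* (4.83). *Mmp3* had 3529, 117 and 184 counts in injured *VEGFR3fl/fl* replicates 1 to 3 against 4 to 11 in Sham, so its mean rests mostly on replicate 1. *Il6* had at most 1 count in a Sham library. *Mmp9* had 3, 2 and 7 counts in Sham and 153, 1790 and 1670 in injured *VEGFR3fl/fl* libraries (SE 1.24). *Sod2* (-0.40) and *Nfkbia* (-0.21) were lower and not called. The counts of these lists were not limited to genes over the filter's minimum in every Sham library. Genes such as *Il6*, *Mmp9*, *Tnfaip6* and *Tnip3* entered the test only through an injured group, so this list's count and median rest partly on them. All these log2 fold changes stand beside a median of 0.0102 over all genes tested.

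**Figure D4:**
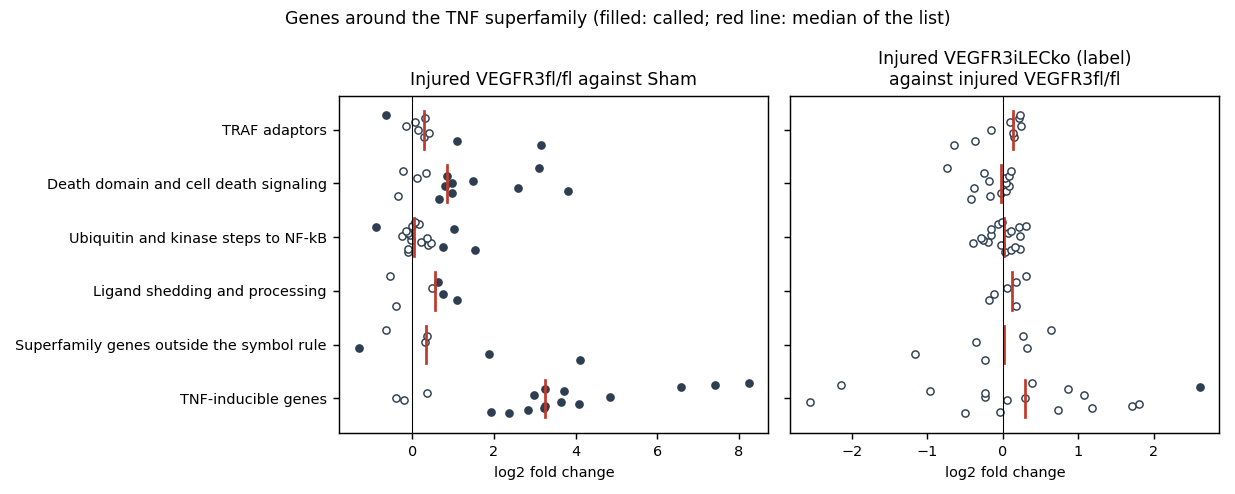
Log2 fold change of each tested gene in 6 lists of genes around the superfamily, after injury on the left and for the label comparison on the right, with filled points for called genes and a red line at the median of each list. TNF-inducible genes, several of them low in Sham, have a median of 3.24 after injury and the ubiquitin and kinase steps one of 0.0315. On the right 1 gene, *Il6*, is called.

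Between the injured groups, no member was called. The study compared the libraries labelled *VEGFR3iLECko* with injured *VEGFR3fl/fl* libraries to ask what loss of VEGFR3 in lymphatic endothelium changes in the injured iris. With edgeR, 0 of 36 members passed, against 1.04% of all genes tested, and the smallest adjusted p was 0.0674. An unadjusted p under 0.05 was reached by 12 members (33.3%), against 24.5% of all genes, and 6 of these also changed more than 1.5-fold (16.7%), against 7.05%. DESeq2's Wald test called 1 member upregulated (*Tnfrsf21*) and 3 downregulated (*Tnfrsf11a*, *Tnfrsf13b* and *Tnfrsf25*) of 36, against 2.33% and 1.87% of all genes. Without injured *VEGFR3fl/fl* replicate 3, edgeR called *Tnfsf10* and *Tnfrsf19* upregulated and *Tnfrsf25* downregulated, against 1.14% and 0.704% of all genes in that fit. The injured groups did not overlap for 10 members, 3 of them higher (8.33%, against 12.4% of all genes) and 7 lower (19.4%, against 14.3%) in the libraries labelled *VEGFR3iLECko*. The genes named next, other than those with a large change after injury and their partners, were chosen after their values were seen.

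The 3 members that were higher without overlap were *Tnfsf11*, *Tnfsf10* and *Tnfrsf21*. *Tnfsf11* had 609 to 748 counts against 20 to 332, a log2 fold change of 1.94 (SE 0.71, adjusted p = 0.165 by edgeR). It was 2.86 without injured replicate 3 and 0.99 (adjusted p = 0.782 by edgeR) with a covariate for Y-linked genes. In injured replicate 3, the library of its group that nearly lacks Y-linked reads, *Tnfsf11* was the highest of its group. *Tnfsf10* had 584, 635 and 588 counts against 328, 420 and 499, a log2 fold change of 0.51 (SE 0.13, adjusted p = 0.0766 by edgeR), which was 0.64 (adjusted p = 0.0438) without injured replicate 3. *Tnfrsf21* had 1588, 1103 and 1201 counts against 463, 772 and 871 (log2 fold change 0.86, SE 0.23, adjusted p = 0.0810 by edgeR).

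The 7 members that were lower without overlap were all receptors except *Tnfsf12*. *Tnfrsf25* had 55, 75 and 63 counts against 263, 128 and 108, a log2 fold change of -1.42 (SE 0.34, adjusted p = 0.0674 by edgeR), which was -1.66 (adjusted p = 0.0429) without injured replicate 3, -0.88 without injured replicate 1 and -0.75 (adjusted p = 0.633) with the covariate for Y-linked genes. *Tnfrsf1b* had 3579, 3720 and 3522 counts against 4616, 4501 and 5007 (log2 fold change -0.42, SE 0.11, adjusted p = 0.0720 by edgeR). *Tnfrsf11a* had 181, 147 and 182 counts against 274, 265 and 215 (log2 fold change -0.60, SE 0.16, adjusted p = 0.0779 by edgeR). All libraries labelled *VEGFR3iLECko* lay above all Sham libraries for these 3 receptors. *Tnfrsf13b* (-0.60), *Tnfrsf4* (-0.52), *Tnfrsf14* (-0.23) and *Tnfsf12* (-0.52) also did not overlap, with adjusted p from 0.113 to 0.196 by edgeR. The covariate for Y-linked genes also moved *Tnfrsf11a* to -0.33, *Tnfrsf4* to -0.32 and *Tnfsf10* to 0.27.

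**Figure D5:**
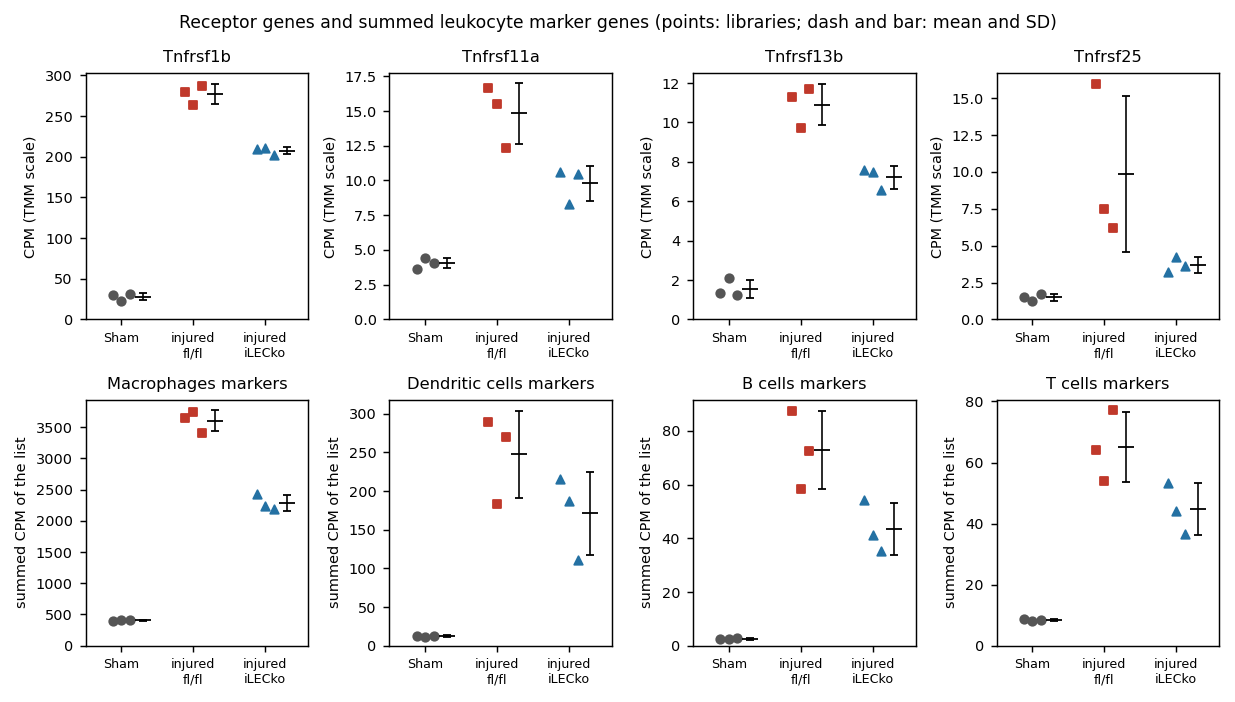
CPM on the TMM scale of 4 receptor genes that were lower in all libraries labelled *VEGFR3iLECko* than in all injured *VEGFR3fl/fl* libraries (top), and summed CPM of macrophage, dendritic cell, B cell and T cell markers (bottom), with 1 point per library and a dash and bar for mean and SD (n = 3). Macrophage markers run from 3413 to 3746 CPM in injured *VEGFR3fl/fl* and from 2182 to 2432 CPM in the libraries labelled *VEGFR3iLECko*.

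Macrophage, B cell and T cell markers differed between the injured groups in the same direction as these receptors, while neutrophil markers did not. Macrophage markers summed to 2182 to 2432 CPM in the libraries labelled *VEGFR3iLECko*, below all injured *VEGFR3fl/fl* libraries. Of the 11 marker genes, 5 were called downregulated, against 1.04% of all genes called in either direction. No gene at all was called in the fit of only the 6 libraries compared, nor without replicate 2 of the libraries labelled *VEGFR3iLECko*. With the covariate for Y-linked genes, 2 of all genes were downregulated, so most of these calls did not stand. B cell markers were at 35.3 to 54.1 CPM, against 58.5 to 87.5 CPM in injured *VEGFR3fl/fl* libraries. T cell markers were at 36.4 to 53.4 CPM, against 54.1 to 77.2 CPM, so both sums also lay below all injured *VEGFR3fl/fl* libraries. Dendritic cell markers, at 111.3 to 215.9 CPM against 183.5 to 289.4 CPM, overlapped. None of the B cell, T cell or dendritic cell marker genes was called. Neutrophil markers were at 395.9 to 1251 CPM, against 162.4 to 537.8 CPM. The part of these cell types in the receptor differences was not tested.

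*Tnf* did not separate the injured groups, with a log2 fold change of -0.26 (SE 0.44, adjusted p = 0.746 by edgeR). Its sign turned with the covariate for Y-linked genes (0.57) and without injured replicate 2 (0.27), the library with 77 counts. *Tnfrsf1a* differed by -0.09 (SE 0.08) and *Tnfrsf26* by -0.06 (SE 0.11), and neither was called. *Tnfrsf9* had 41, 66 and 230 counts in the libraries labelled *VEGFR3iLECko*, of which replicate 3 stood apart. *Ltb*, with 77, 91 and 104 counts against 88, 137 and 209, was at -0.70 (SE 0.29, adjusted p = 0.184 by edgeR), at -0.36 without injured replicate 3 and at -1.18 with the covariate for Y-linked genes. *Tnfrsf12a*, with 1021, 698 and 897 against 428, 768 and 539 counts, was at 0.57 (SE 0.20, adjusted p = 0.147 by edgeR). Of the genes around the superfamily, *Il6* alone was called, with 282, 256 and 255 counts against 19, 61 and 47 (log2 fold change 2.62, SE 0.37, adjusted p = 0.0263 by edgeR). No gene of the lists was called in the fit of only the 6 libraries compared, with the covariate for Y-linked genes, and without Sham replicate 1 or 3 or any library labelled *VEGFR3iLECko*.

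Against Sham, the libraries labelled *VEGFR3iLECko* showed 26 of 36 members upregulated, against 19.7% of all genes, and 1 downregulated, against 15%. Of the 24 members over the filter's minimum in every Sham library, 15 (62.5%) were upregulated, against 16.5% of all genes chosen in that way. With the covariate for Y-linked genes 23 members were upregulated, and *Tnfsf13b* (adjusted p = 0.0684 by edgeR), *Tnfrsf18* (0.0650) and *Tnfsf9* (0.272) were no longer called. This comparison shares its libraries with both others, and its values are given beside them. *Tnfsf11* was at least 224-fold higher than in Sham, *Tnfsf14* at least 55.3-fold and *Tnfsf15* at least 22.1-fold. *Tnfrsf25*, called after injury in *VEGFR3fl/fl* irises at a log2 fold change of 2.72, was at 1.30 here (adjusted p = 0.0143 by edgeR, or 0.0522 without Sham replicate 2), and at 2.11 with the covariate for Y-linked genes. *Tnfrsf4* was at 0.24 (adjusted p = 0.408 by edgeR) and was not called. *Tnfsf9* was called at 1.17 (adjusted p = 0.0262 by edgeR), with adjusted p of 0.0576 to 0.0778 when any 1 of 5 libraries (the 3 of Sham and replicates 2 and 3 of those labelled *VEGFR3iLECko*) was left out.

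Set on a common scale per transcript length, the receptors of TNF, lymphotoxin β and TWEAK and the TWEAK ligand led the superfamily. In injured *VEGFR3fl/fl* libraries the approximate TPM was 332 for *Tnfrsf1a*, 169 for *Tnfrsf1b*, 169 for *Ltbr*, 151 for *Tnfsf12*, 81.2 for *Tnfrsf12a* and 66.8 for *Tnfrsf14*. *Tnf*, at 3.99 TPM, and *Tnfsf11*, at 10.6 TPM and 43.6 TPM in the libraries labelled *VEGFR3iLECko*, were lower in level than these receptors. *Tnfrsf12a* stood at 13.3 TPM in Sham, 81.2 TPM in injured *VEGFR3fl/fl* and 132 TPM in the libraries labelled *VEGFR3iLECko*. These levels use the longest annotated transcript and are approximate.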

How the data were processed

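RNA of iris was measured in 9 libraries, 3 per group, each of 3 pooled irises. Per the study's methods and the submitters' processing notes, the authors aligned single-end 50-base reads with HISAT2 2.0.4 and Bowtie2 2.2.5 to mm10 and compared groups with DESeq2 1.4.5. The deposited values are estimated counts per gene (expected counts, not all whole), which were rounded here because the planned test needs whole counts. Groups came from the sample titles. The genotype tags of 2 libraries labelled *VEGFR3iLECko* name other genes.

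Members and lists were chosen with earlier results of these data known. All 9 libraries were fitted with edgeR 4.0.16 (R 4.3.3), with TMM scaling, its filter on low counts (minimum count 10) and the group as the only term. Calls needed an adjusted p under 0.05 (Benjamini-Hochberg) and over 1.5-fold. DESeq2 1.42.0, other scalings, filters, fold thresholds, a replicate block, a Y-linked covariate and leaving out each library were alternatives. The filter of the study on low TPM was not applied. Folds against Sham counts at or near 0 are bounds against 3 counts per library. Approximate TPM used the longest GENCODE transcript of each gene, found for 97.6% of genes. Genes given in full by rule were *Tnf*, the 12 largest fitted rises, the largest fall and the binding partners of these. Library counts of some other members, such as *Tnfrsf21*, *Tnfrsf4* and *Fasl*, are given outside this rule. Replicates are separate libraries by their labels. The p-values set differences between groups against the spread between libraries, each a pool of 3 irises, and not between single mice. That spread was estimated over all 3 groups together. The p-values and SE between the injured groups thus also draw on the spread between Sham libraries, which was smaller over all genes tested. On simulated injury data of 14852 genes, 196 of 200 genes changed 3-fold were recovered, and 10 unchanged genes were called. All genes were drawn with 1 common spread (dispersion 0.0314) in every group. The simulation therefore does not show recovery at the wider spread of the real injured libraries.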

Additional observations from a re-analysis of the deposited data

How the results depend on the processing

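After injury, 27 members were upregulated, 26 to 27 when a library was left out, and 24 with a 2-fold threshold, and the downregulated count of 1 became 2 with library size only and with the Y-linked covariate, and ran from 1 to 2 when a library was left out. The log2 fold change of *Ngfr* after injury turned to -0.0627 with library size only, to -0.00375 without Sham replicate 2 and to -0.0650 without injured replicate 2 (-0.0650 to 0.275 over all libraries left out), and that of *Eda* to 0.0832 and 0.0841 without injured replicate 2 or 3 (-0.466 to 0.0841). Between the injured groups, *Tnfrsf11b* turned to -0.10 without injured replicate 1 and to -0.14 without replicate 3 of the libraries labelled *VEGFR3iLECko* (-0.14 to 0.19 over all libraries left out), *Tnf* to 0.57 with the Y-linked covariate and 0.27 without injured replicate 2 (-0.63 to 0.27), and *Tnfrsf19* to -0.15 with the Y-linked covariate. The cause was not tested.

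Between the injured groups, DESeq2 called 1 member up and 3 down against 0 and 0, and leaving out a library gave 0 to 2 up and 0 to 1 down. Over all genes the counts were 86 up and 70 down, 349 and 281 with DESeq2, 0 and 0 with the 6 libraries compared, 0 and 2 with the Y-linked covariate, and from 0 to 174 up and 0 to 149 down when a library was left out. Of the genes around the superfamily, 1 was called up and 0 down, against 3 and 3 with DESeq2, 0 up with the 6 libraries compared and with the Y-linked covariate, and 0 to 2 up and 0 to 1 down when a library was left out. Their downregulated count after injury was 3, or 8 with no fold threshold and 1 with a 2-fold threshold, and for the libraries labelled *VEGFR3iLECko* against Sham 2, or 5, 0 and, with the Y-linked covariate, 1. Library size only moved the median of all genes to -0.162 after injury.

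Deviations from the group mean correlated at -0.37 to 0.163 between same-numbered libraries of different groups, and at -0.251 to 0.339 between unlike-numbered ones. This gave no sign that the numbers pair libraries, but with 3 libraries per group it cannot exclude it. With the replicate block, 27 members were up and 1 down after injury, 0 and 0 between the injured groups, where all genes gave 11 up and 13 down and the genes around the superfamily 0 up.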
